A study of Homo sapiens with 4 samples.

Results

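Heat shock chaperones are proteins that bind unfolded or partly folded clients and help them to fold, and their genes are known for their induction by heat and by other stresses that damage proteins. The 10 genes described here are HSPA1A, HSPA1B and HSPA8 of the Hsp70 family, the Hsp70 partners HSPH1 and DNAJB1, the cytosolic Hsp90 genes HSP90AA1 and HSP90AB1, the small heat shock protein gene HSPB1, and HSPD1 and HSPE1, which encode the mitochondrial chaperonin and its lid. The list is one of known chaperones given by symbol, and no measured value enters the rule, although earlier results of these data were known when it was drawn up. Each of the 10 symbols matched 1 identifier among the 63677 genes of each count file, and all 10 passed the low-count filter that left 15398 genes for testing.

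RNA-seq of poly(A) RNA was carried out in IMR90, a line of human fetal lung fibroblasts, 72 h after transfection with RNAiMAX. The control group received a non-targeting siRNA (NTC) and the HMGB1 knockdown group received siRNA against HMGB1. HMGB1 is an abundant nuclear DNA-binding protein of the high mobility group, and the study asked what its loss does to gene expression on the path to senescence. Each group held 2 libraries, where replicate 1 is the isolate I90-10 and replicate 2 is I90-79, so that each isolate gave 1 control and 1 knockdown library. The study's methods state that 2 different siRNAs were used in IMR90, but the labels do not say which siRNA went into which library, and no untransfected cells or heat-treated cells are among these samples.

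The libraries held 29861687 to 35317010 counted reads. HMGB1 itself was at 181 and 237 CPM (the usual read count per library size, here scaled with TMM factors) in the controls, against 16.0 and 18.9 CPM after its knockdown, a log2-fold change of -3.59 ± 0.19 (standard error) with an adjusted p of 0.0075 (edgeR quasi-likelihood test, Benjamini-Hochberg). The fibroblast markers were all detected, and the summed level of the 10 markers was 50932 and 43610 CPM in the control and the knockdown library of I90-10 but 26197 and 26687 CPM in those of I90-79. Single markers did not all follow this sum. Upon knockdown, COL6A1, THY1, PDGFRB, VIM and FN1 were lower in both isolates, and COL3A1 and LUM were higher in both. COL1A1, COL1A2 and DCN were lower in I90-10 and higher in I90-79. These marker differences were not tested. Epithelial markers summed to 1.15 to 6.20 CPM, with KRT5 at 0, while EPCAM had 17 to 20 counts per library. KRT19 was at 5.48 and 3.46 CPM in the control and the knockdown library of I90-10, but at 0.787 and 0.512 CPM in those of I90-79. Immune markers summed to 0.136 to 0.693 CPM, with CD3E and MS4A1 at 0. Endothelial markers summed to 135 to 150 CPM, nearly all of it TEK (131 to 149 CPM), while CDH5 was at 0 in every library. In such bulk samples, fewer cells that use a gene and less of its RNA per cell cannot be told apart.

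In a resting cell, heat shock factor HSF1 is held inactive with the help of the chaperones themselves. When unfolded clients draw the chaperones away, HSF1 forms trimers and binds heat shock elements, which are runs of the letters GAA and their reverse complement TTC in alternating order, spaced by 2 bases. Some family members are mainly inducible, above all HSPA1A and HSPA1B, whereas others such as HSPA8 and HSP90AB1 are made at high levels without stress. The promoters of the 10 genes were therefore searched for such runs. All 10 genes were matched to RefSeq promoter windows of 300 bases, 250 before to 50 after the start site (RefSeq table of build GRCh38.p14), and each window had 1 exact match in hg19, the build of the count files. Both strands were covered by searching for GAANNTTC and TTCNNGAA as a run of 2 units and for GAANNTTCNNGAA and TTCNNGAANNTTC as a run of 3 units, so that every run of 3 units also counts among the runs of 2.

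Of the 10 windows, 4 held a run of at least 2 units, compared with 13.69% of the 27305 RefSeq promoters of the same length, and 1 held runs of 3 units, compared with 0.49% of all promoters. The stretches with the runs are shown 5′ to 3′ on the strand of the gene, with the GAA and TTC units and the bases between them in capitals. HSPA1A and HSPA1B each had a single run of 2 units, at -106 to -99 and -105 to -98 relative to the RefSeq start site. The stretches lie upstream of the exons of both genes on the plus strand, at chr6:31783180-31783279 and chr6:31795375-31795474 (hg19).
HSPA1A: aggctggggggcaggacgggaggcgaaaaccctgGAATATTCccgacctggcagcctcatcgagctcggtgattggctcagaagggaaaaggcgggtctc
HSPA1B: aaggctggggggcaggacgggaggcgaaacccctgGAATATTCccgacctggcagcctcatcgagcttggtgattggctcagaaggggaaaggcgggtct

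The run itself was the same in both genes, and over the 250 bases before the start sites 235 of 251 aligned columns (93.6%) were identical. HSPA8 was the gene with runs of 3 units, and it had 2 of them, at -230 to -218 and at -55 to -43. They are shown with 4 bases on each side, on the minus strand at chr11:122933058-122933078 and chr11:122932883-122932903 (hg19), where the annotation also places first exons of longer HSPA8 transcripts.
HSPA8 far run: gcttGAAAGTTCCAGAAcgct
HSPA8 near run: ccccTTCTGGAAGGTTCtaag

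HSPB1 had a run of 2 units at -182 to -175, upstream of its first exon on the plus strand at chr7:75931790-75931839 (hg19).
HSPB1: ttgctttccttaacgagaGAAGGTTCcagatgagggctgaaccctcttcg

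No run of these letters was found in the windows of HSPH1, DNAJB1, HSP90AA1, HSP90AB1, HSPD1 and HSPE1, which says only that the strict letters are not within 250 bases upstream and 50 bases downstream of these start sites. Only 1 window per gene was searched, and other start sites of these genes were not. The window of HSP90AB1 (chr6:44213681-44213980) lies wholly upstream of its counted exons, which begin at 44214824. That of HSP90AA1 (chr14:102606037-102606336, minus strand) also lies wholly upstream of its counted exons, whose outer end is at 102606036. The CCAAT box, searched as CCAAT or ATTGG, was found 3 times in the window of DNAJB1, 2 times each in those of HSPA1A, HSPA1B and HSPA8 and once in that of HSP90AA1, and 35.7% of all promoters held at least 1. HSPD1 and HSPE1 are divergent neighbours, and their RefSeq start sites at 198364998 and 198365103 on chromosome 2 have 104 bases between them (chr2:198364999-198365102), of which 74.0% are G or C.

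**Figure D1:**
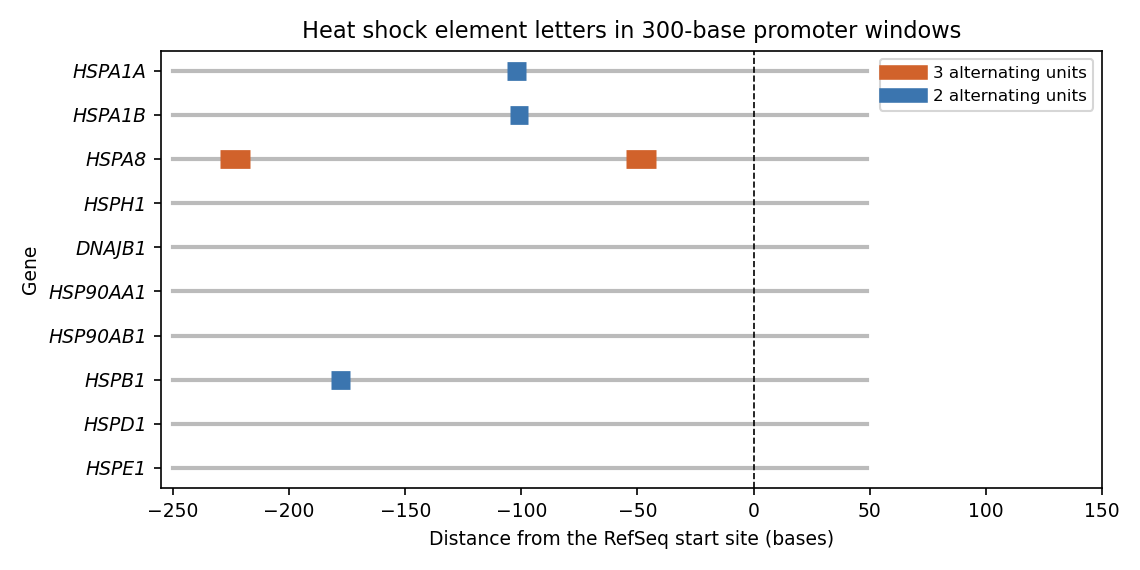
Position of heat shock element letters in the promoter window of each of the 10 genes. The x axis is the distance from the RefSeq start site in bases (dashed line at 0), each grey line is the 300-base window of 1 gene, and the blocks are runs of 2 (blue) or 3 (orange) alternating units; HSPA8 has 2 runs of 3 units, HSPA1A, HSPA1B and HSPB1 have 1 run of 2 units each, and the other windows have none.

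Upon HMGB1 knockdown, the stress-inducible Hsp70 genes showed no common shift, while HSPA8 was higher in both knockdown libraries. HSPA1A (ENSG00000204389, chr6:31783291-31785723, plus strand) was at 19.8 and 25.0 CPM in the controls of I90-10 and I90-79, in that order here and below, and at 18.6 and 28.9 CPM upon knockdown. Its knockdown values lay on both sides of the control values, and its log2-fold change was 0.08 ± 0.25. HSPA1B (ENSG00000204388, chr6:31795512-31798031, plus strand) was at 19.9 and 27.4 CPM in the controls and at 17.2 and 25.6 CPM in the knockdown, a log2-fold change of -0.14 ± 0.26 with overlapping groups. For both genes and in both groups, I90-79 exceeded I90-10 by more than the group means differed, and leaving out single libraries moved the log2-fold change of HSPA1A between -0.27 and 0.36. These genes encode nearly the same protein: 73.7% of the 50-base pieces of HSPA1A transcripts and 73.6% of those of HSPA1B transcripts also occur in other genes, mostly in each other, and the counts were of unique reads, so both levels leave out reads that fit both genes. Their summed level was 39.8 and 52.4 CPM in the controls and 35.8 and 54.5 CPM in the knockdown.

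HSPA8 (ENSG00000109971, chr11:122928197-122933938, minus strand) encodes the constitutive Hsp70 of the cytosol, which folds new proteins and strips clathrin from vesicles. It was at 2171 and 2595 CPM in the controls and at 2857 and 3159 CPM in the knockdown libraries. Both knockdown values lay above both control values, and the log2-fold change was 0.34 ± 0.18, with an adjusted p of 0.280 in the edgeR test. With the isolate as a replicate block, that is, with each knockdown library set against the control of its own isolate, it was 0.34 with an adjusted p of 0.0305. Leaving out the control of I90-10 lowered the estimate to 0.21, and over all single libraries left out it ran from 0.21 to 0.47. The small nucleolar RNA genes SNORD14C and SNORD14D, whose bases lie within HSPA8, were at 0 counts in every library, and the pseudogene HSPA8P1, which holds 2.8% of the 50-base pieces of HSPA8, had 9 to 15 counts.

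Of the Hsp70 partners, HSPH1 was higher in both knockdown libraries and DNAJB1 was nearly level. HSPH1 (ENSG00000120694, chr13:31710762-31736525, minus strand) encodes an Hsp110 protein, which releases ADP from Hsp70 and so resets its cycle. It was at 209 and 261 CPM in the controls and at 277 and 341 CPM in the knockdown. The lowest knockdown value stood just above the highest control value, and the log2-fold change of 0.39 ± 0.18 had an adjusted p of 0.217, or 0.0135 with the block. It ran from 0.23 without the knockdown library of I90-79 to 0.56 without the control of I90-79. None of the 50-base pieces of HSPH1 occur in another gene. DNAJB1 (ENSG00000132002, chr19:14625582-14640582, minus strand) encodes an Hsp40 or J-domain protein, which hands clients to Hsp70 and speeds its ATP cleavage. It was at 128 and 127 CPM in the controls and at 129 and 131 CPM in the knockdown, a log2-fold change of 0.03 ± 0.10. This gene had the smallest spread of the 10 in both groups, and its sign turned when library totals were used in place of TMM factors (-0.012). TECR, with 1082 to 1842 counts, covers 5.7% of the exonic bases of DNAJB1 on the opposite strand. The strand setting is not given in the sources used here, so reads in these bases cannot be assigned with certainty.

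The Hsp90 genes of the cytosol differed from each other. HSP90AA1 (ENSG00000080824, chr14:102547075-102606036, minus strand) encodes the more inducible of these chaperones of kinases and steroid receptors. It was at 1516 and 1779 CPM in the controls and at 1932 and 2359 CPM in the knockdown. Both knockdown values lay above both control values, with a log2-fold change of 0.38 ± 0.19 and an adjusted p of 0.245, or 0.0184 with the block. The estimate ran from 0.23 without the knockdown library of I90-79 to 0.52 without that of I90-10. HSP90AB1 (ENSG00000096384, chr6:44214824-44221620, plus strand), the more constitutive gene, was at 1175 and 1470.1 CPM in the controls and at 1306 and 1438 CPM in the knockdown. The groups overlapped, the log2-fold change was 0.05 ± 0.18, and its adjusted p stayed at 0.683 with the block. Per exonic length (RPKM), HSP90AA1 stood at 0.687 and 0.645 times the level of HSP90AB1 in the controls and at 0.788 and 0.874 times in the knockdown libraries. The ratio was thus higher in the knockdown library of each isolate, and its groups did not overlap. That it is below 1 depends on the exonic lengths, 5248 bases for HSP90AA1 and 2796 for HSP90AB1. By CPM, HSP90AA1 was above HSP90AB1 in every library. Pseudogenes with matching pieces had few counts, 16 to 31 for HSP90AB3P and 20 to 29 for HSP90AA2P. WDR20, with 670 to 962 counts, covers 3.8% of the exonic bases of HSP90AA1 on the opposite strand, where the unknown strand setting is again a limit.

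HSPB1 (ENSG00000106211, chr7:75931861-75933612, plus strand), which encodes Hsp27, a small chaperone that holds unfolded clients without using ATP, was the member with the most negative estimate. It was at 331 and 203 CPM in the controls and at 245 and 199 CPM in the knockdown. The library standing apart was the control of I90-10, and without it the log2-fold change turned from -0.27 ± 0.26 to 0.13. By isolate, the log2-fold change was -0.44 in I90-10 and -0.03 in I90-79, and its adjusted p was 0.545, or 0.169 with the block.

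The mitochondrial pair had the 2 most positive estimates. HSPD1 (ENSG00000144381, chr2:198351305-198381461, minus strand) encodes Hsp60, the barrel in which proteins of the mitochondrial matrix fold. It was at 385 and 542 CPM in the controls and at 624 and 768 CPM in the knockdown libraries. Both knockdown values lay above both control values, the log2-fold change was 0.59 ± 0.22, and the adjusted p was 0.155. HSPE1 (ENSG00000115541, chr2:198364718-198368181, plus strand) encodes Hsp10, the lid that closes the barrel. It was at 41.9 and 63.9 CPM in the controls and at 78.9 and 83.7 CPM in the knockdown, a log2-fold change of 0.62 ± 0.21 with an adjusted p of 0.138. The estimate was 0.91 in I90-10 and 0.39 in I90-79, and that of HSPD1 was 0.70 and 0.50, but with 1 library per isolate and group the difference was not tested.

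With the block, HSPE1 passed the thresholds of the study (adjusted p below 0.01 and absolute log2-fold change above 0.6), with a log2-fold change of 0.65 and an adjusted p of 0.0081 in the edgeR test. HSPD1 had a smaller adjusted p (0.0030) and an estimate of 0.5996, just under the threshold on the fold change. Leaving out the control of I90-10 lowered the log2-fold change of HSPE1 to 0.35 and that of HSPD1 to 0.36, and leaving out the control of I90-79 raised them to 0.96 and 0.85. For both genes the control of I90-10 was the lowest of the 4 libraries. The ratio of HSPD1 to HSPE1 per length was 4.28 and 3.95 in the controls and 3.69 and 4.27 in the knockdown, with overlapping groups. The 2 genes overlap by 281 exonic bases on opposite strands, 14.2% of those of HSPE1 and 6.6% of those of HSPD1, and 9.7% of the exonic bases of HSPE1 also belong to HSPE1-MOB4, a readthrough gene with 0 to 7 counts. The setting for the strand is not given in the sources used here, so reads in the shared bases cannot be assigned to either gene with certainty.

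**Figure D2:**
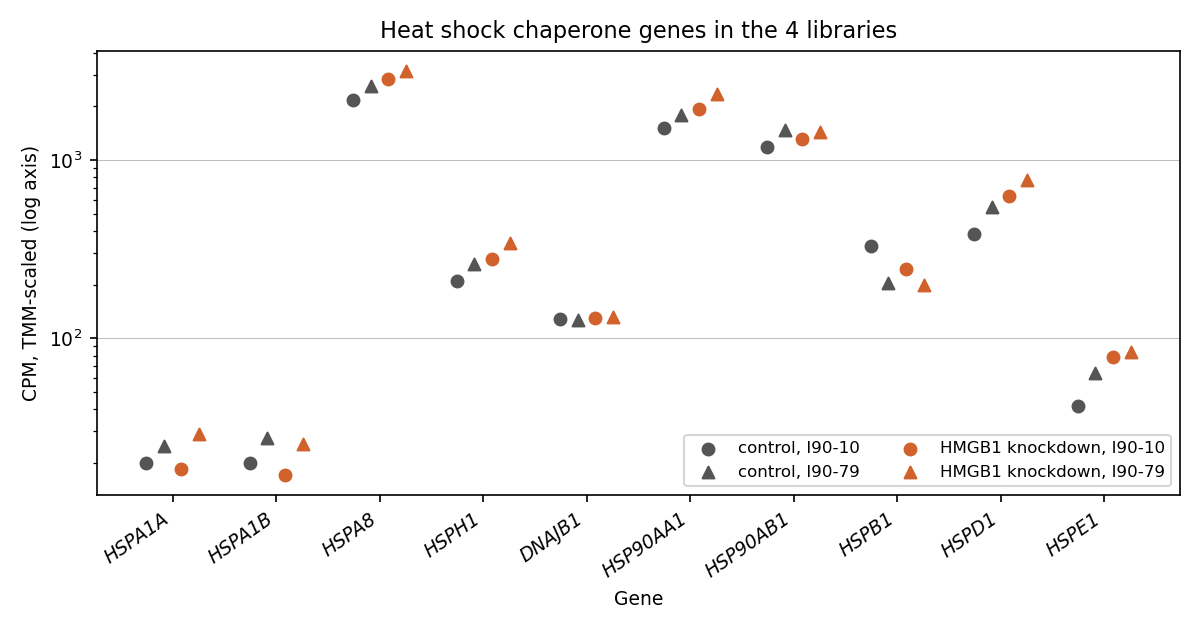
Level of each of the 10 genes in the 4 libraries. The y axis is CPM scaled with TMM factors on a log axis, grey marks are control and orange marks HMGB1 knockdown libraries, and circles are isolate I90-10 and triangles I90-79; both orange marks stand above both grey marks for HSPA8, HSPH1, DNAJB1, HSP90AA1, HSPD1 and HSPE1.

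None of the 10 genes passed the thresholds of the study in the edgeR test without the block, in which 0.0649% of the 15398 genes were called up and 0.136% down. At an unadjusted p below 0.05 there were 2 of 10, HSPE1 and HSPD1, both up, where 13.6% of all genes were up and 14.7% down, so this count is near the background. DESeq2, with or without an RUVs factor, also called none. At an adjusted p below 0.05 with no threshold on the fold change there were again none, against 3.94% of all genes up and 4.5% down. With the block, 1 of 10 was called up and 0 down, where 6.68% of all genes were called up and 7.84% down. At an adjusted p below 0.05 in the fit with the block, 5 of 10 were higher upon knockdown (HSPE1, HSPD1, HSPH1, HSP90AA1 and HSPA8), against 15.9% of all genes tested. Over all 7 alternatives that keep every library, the adjusted p ran from 0.00142 to 0.195 for HSPE1, from 0.000992 to 0.212 for HSPD1, from 0.0135 to 0.319 for HSPH1, from 0.0184 to 0.323 for HSP90AA1 and from 0.0305 to 0.363 for HSPA8.

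Without reference to a test, both knockdown libraries were above both controls for 6 of the 10 genes, where 29.8% of all genes had this order, and below them for 0 of 10, where 30.2% did. The median log2-fold change of the 10 genes was 0.21, compared with -0.01 for all genes tested. In 8 of 10 the estimate had the same sign in both isolates, with 6 positive and 2 negative (HSPA1B and HSPB1), while 78.3% of all genes tested had the same sign. The members were chosen as related chaperone genes and cannot be taken as independent of each other. For a single gene in this design of 2 against 2 libraries, the smallest p of a two-sided exact permutation test is 0.333.

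**Figure D3:**
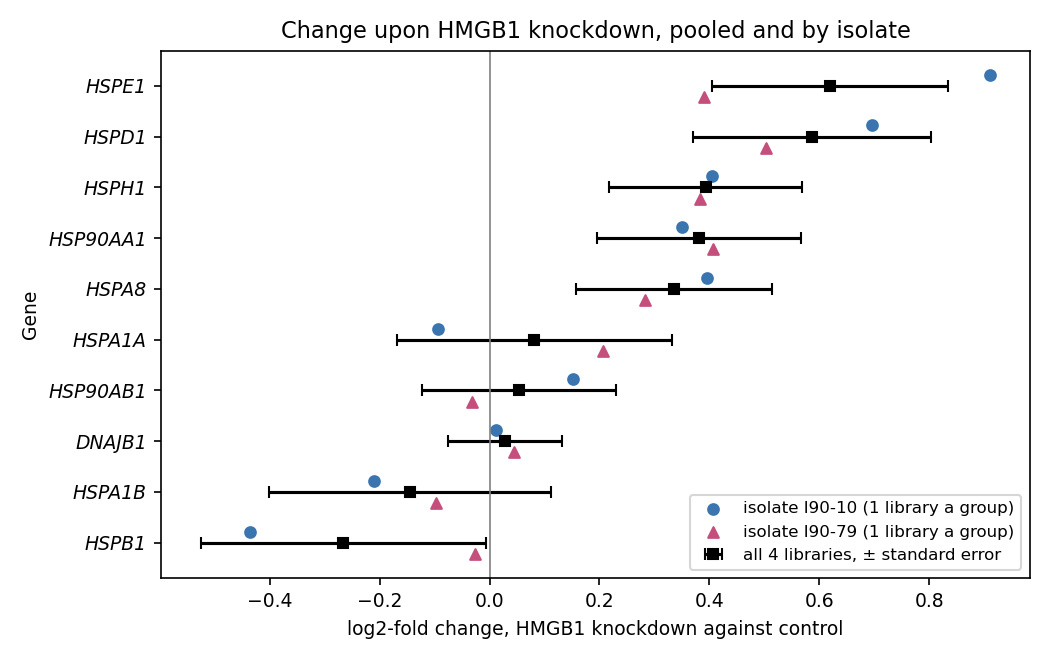
log2-fold change of each of the 10 genes upon HMGB1 knockdown (x axis), with genes on the y axis in the order of the estimate. Black squares are the estimate from all 4 libraries with bars of 1 standard error, and blue circles and pink triangles are the values within isolate I90-10 and I90-79 (1 library a group each); HSPE1 and HSPD1 stand at the top with 0.62 and 0.59, and HSPB1 at the bottom with -0.27.

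The isolates also differed in these genes. Replicate 1 is always I90-10 and replicate 2 always I90-79, so the isolate cannot be told apart from any other difference between the replicates. In both groups, 8 of the 10 genes were higher in I90-79 than in I90-10, which was the case for 33.5% of all genes tested, HSPB1 was lower in I90-79 in both groups, and DNAJB1 differed by no more than 2 CPM in either group. In the fit with the block, the log2 difference of I90-79 against I90-10 was 0.52 for HSPA1B (adjusted p 0.0366), 0.48 for HSPA1A (0.0600), 0.40 for HSPD1 (0.0568), 0.31 for HSPH1 (0.0916) and -0.50 for HSPB1 (0.0444). None of the 10 passed the thresholds of the study for the isolate, where 0.442% of all genes were higher and 1.23% lower in I90-79. For HSPA1A, HSPA1B, HSP90AB1 and HSPB1 the difference between isolates was larger than that upon knockdown. The summed fibroblast markers, at 26197 and 26687 CPM in I90-79 and 50932 and 43610 CPM in I90-10, moved with the isolate as well, and their part in these differences was not tested.

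RPKM here divide CPM by the length of all annotated exons of a gene together, and not by that of a single transcript. By CPM, HSP90AA1 was above HSP90AB1 in every library. Per exonic length, HSPA8 was the highest of the 10 genes, with a mean of 556 RPKM over the 4 libraries and a range of 448 to 651. It was followed by HSP90AB1 (482, range 420 to 526) and HSP90AA1 (361, range 289 to 450), and the ranges of neighbours in this order overlapped. HSPB1 (150, range 122 to 203) and HSPD1 (137, range 90.7 to 181) came next and overlapped each other. HSPH1 stood alone at 66.3 RPKM (51.0 to 83.1), followed by DNAJB1 (35.1, range 34.6 to 35.7) and HSPE1 (33.9, range 21.2 to 42.4), which overlapped. HSPA1A (9.48, range 7.64 to 11.9) and HSPA1B (8.94, range 6.83 to 10.9) were the lowest, a position that rests on the unique reads of a pair of near-copies. HSPA8 was 52.1 to 77.1 times HSPA1A per length, and the highest ratio was in the knockdown library of I90-10. All 10 genes together took 0.590% and 0.740% of the counts in the controls and 0.724% and 0.857% upon knockdown. The share was higher upon knockdown in each isolate, but that of the control of I90-79 lay above that of the knockdown of I90-10. HSPA8, HSP90AA1 and HSP90AB1 made up most of it, with 4862 and 5844 of 5997 and 7093 summed CPM in the controls and 6095 and 6956 of 7484 and 8533 CPM in the knockdown.

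The wider chaperone network was listed by role and held 90 genes, of which 85 were tested. None passed the thresholds of the study, and at an unadjusted p below 0.05 there were 16 up and 9 down, against 13.6% of all genes up and 14.7% down. At an adjusted p below 0.05, 6 rose and 3 fell, against 3.94% and 4.5% of all genes. Under library totals in place of TMM factors 2 were up and 3 down at this threshold, and HSBP1, FKBP4, CCT4 and PFDN6 no longer passed (adjusted p 0.0506, 0.0585, 0.0675 and 0.0563 in the edgeR test). When single libraries were left out, the estimates of these 9 genes kept their sign, from 0.95 to 1.65 for FKBP4 and from -1.63 to -1.54 for DNAJA3. Whether they passed an adjusted p of 0.05 depended on the library left out. Such fits leave 1 library in a group, and HMGB1 itself lost its call without either knockdown library. With the block, 6 were called up and 5 down by the thresholds of the study, where 6.68% and 7.84% of all genes were, and 23 were up and 13 down at an adjusted p below 0.05, against 15.9% and 16.3%. The median log2-fold change of the 85 genes was 0.14, with 52 positive and 33 negative estimates, while 49.6% of all estimates were positive.

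The heat shock factors themselves did not pass the test. HSF1, the main activator of these genes, was at 72.9 and 76.9 CPM in the controls and 80.2 and 78.0 CPM in the knockdown, a log2-fold change of 0.08 ± 0.11. HSF2 was at 22.4 and 21.8 CPM and then 22.8 and 23.7 CPM (0.07 ± 0.13). HSF4 was below 1 CPM in every library. HSBP1, whose protein binds HSF1 trimers, was at 137 and 134 CPM in the controls and 213 and 195 CPM in the knockdown and rose with a log2-fold change of 0.59 ± 0.11 (adjusted p 0.0433 in the edgeR test). These are levels of RNA, and HSF1 is mainly controlled as a protein.

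Among the J-domain proteins, which bring clients to Hsp70 as DNAJB1 does, DNAJA3, a mitochondrial partner of Hsp70, fell from 56.3 and 60.0 CPM to 19.2 and 19.6 CPM, a log2-fold change of -1.58 ± 0.12 with an adjusted p of 0.0104 in the edgeR test. DNAJC7, which binds both Hsp70 and Hsp90, fell from 97.0 and 106 CPM to 54.4 and 55.8 CPM (-0.88 ± 0.11, adjusted p 0.0183). In the group of 19 J-domain genes no other passed without the block, and the median was -0.14. With the block, 3 were called down and 1 up by the thresholds of the study, where 7.84% and 6.68% of all genes were. By these thresholds the other gene down was DNAJB5 and the gene up DNAJA1. At an adjusted p below 0.05 with the block, 5 of 19 were lower and 1 higher, against 16.3% and 15.9% of all genes. The genes added at this threshold were DNAJB14 and DNAJC3, both lower. DNAJB5, DNAJA1, DNAJB14 and DNAJC3 were named here after their values were seen.

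Among the nucleotide exchange factors and cofactors of Hsp70, BAG3, which links Hsp70 to the autophagy of damaged proteins and is itself a target of HSF1, rose from 84.2 and 81.2 CPM to 125 and 121 CPM (0.58 ± 0.10, adjusted p 0.0381). BAG4 fell from 17.0 and 16.3 CPM to 8.83 and 9.64 CPM (-0.85 ± 0.15, adjusted p 0.0381). The other 9 of the 11 genes did not pass. At an adjusted p below 0.05 with the block, 3 of 11 were higher and 1 lower, against 15.9% and 16.3% of all genes. The genes added by the block were HSPBP1 and ST13, both higher and named after their values were seen.

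Of 14 Hsp90 cochaperones, 2 rose and none fell at an adjusted p below 0.05 without the block, against 3.94% and 4.5% of all genes. With the block, 4 rose and 3 fell, against 15.9% and 16.3% of all genes. The genes added by the block, named after their values were seen, were AHSA1 and STIP1 (up) and CHORDC1, FKBP5 and TTC4 (down). FKBP4, an immunophilin of steroid receptor complexes, went from 68.5 and 111 CPM to 192 and 239 CPM, a log2-fold change of 1.26 ± 0.26 with an adjusted p of 0.0488 in the edgeR test. This adjusted p was 0.000182 with the block, and 0.119 and 0.183 without the knockdown library of I90-10 and of I90-79. PPID, or cyclophilin 40, went from 25.0 and 25.6 CPM to 40.8 and 43.1 CPM (0.73 ± 0.12, adjusted p 0.0286). The median of the group was 0.04, with 7 positive and 7 negative estimates.

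In the group of TRiC, the cytosolic chaperonin for actin and tubulin, and of prefoldin, which delivers clients to it, 12 of 14 estimates were positive (49.6% over all genes), the median was 0.35, and both knockdown libraries were above both controls for 10 of 14 (29.8% over all genes). PFDN6 rose from 20.3 and 23.3 CPM to 35.3 and 39.9 CPM (0.78 ± 0.14, adjusted p 0.0381), and CCT4 rose from 225 and 255 CPM to 368 and 377 CPM (0.64 ± 0.13, adjusted p 0.0470). The other 12 did not pass without the block, and with it 8 of 14 were higher at an adjusted p below 0.05 and 0 lower, against 15.9% and 16.3% of all genes.

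In the other groups no gene passed an adjusted p of 0.05 without the block. With it, 4 of the 9 other Hsp70 and Hsp110 genes were higher (HSPA4, HSPA9, HSPA13 and HSPA14) and 2 lower (HSPA2 and HSPA12A). HSPB6 was lower, and of the mitochondrial proteases and disaggregases CLPB and SPG7 were higher and HTRA2 lower. Of these genes, those that are given no values below were named after their values were seen. Over all genes, 15.9% were higher and 16.3% lower at this threshold with the block. Of 9 other Hsp70 and Hsp110 genes, the smallest p were those of HSPA4, at 269 and 301 CPM and then 363 and 413 CPM (0.45 ± 0.14, adjusted p 0.113, or 0.0082 with the block), and of HSPA12A (-0.59, adjusted p 0.129, or 0.0124 with the block). Without the knockdown library of I90-79 the estimate of HSPA12A was -0.35. The organelle Hsp90 genes HSP90B1 of the endoplasmic reticulum and TRAP1 of mitochondria had log2-fold changes of 0.08 and -0.07, and both signs turned under at least 1 alternative. Among the small heat shock proteins, of which 4 of 7 listed genes were tested, HSPB6 was at 27.8 and 15.2 CPM in the controls and 12.7 and 7.04 CPM in the knockdown (-1.12 ± 0.40, adjusted p 0.147, or 0.000555 with the block), and HSPB8 had an estimate of 0.30. Leaving out the control of I90-10 took HSPB6 to -0.62, and over single libraries left out HSPB6 ran from -1.61 to -0.62 and HSPB8 from 0.14 to 0.47. In I90-10 and I90-79 alike, HSPB6 was lower upon knockdown, and like HSPB1 it was lower in I90-79 than in I90-10. Of the 8 mitochondrial proteases and disaggregases, 7 estimates were positive (49.6% over all genes). SPG7 at 0.29 (adjusted p 0.146) and HTRA2 at -0.44 (adjusted p 0.132) had the smallest p in the edgeR test.

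**Figure D4:**
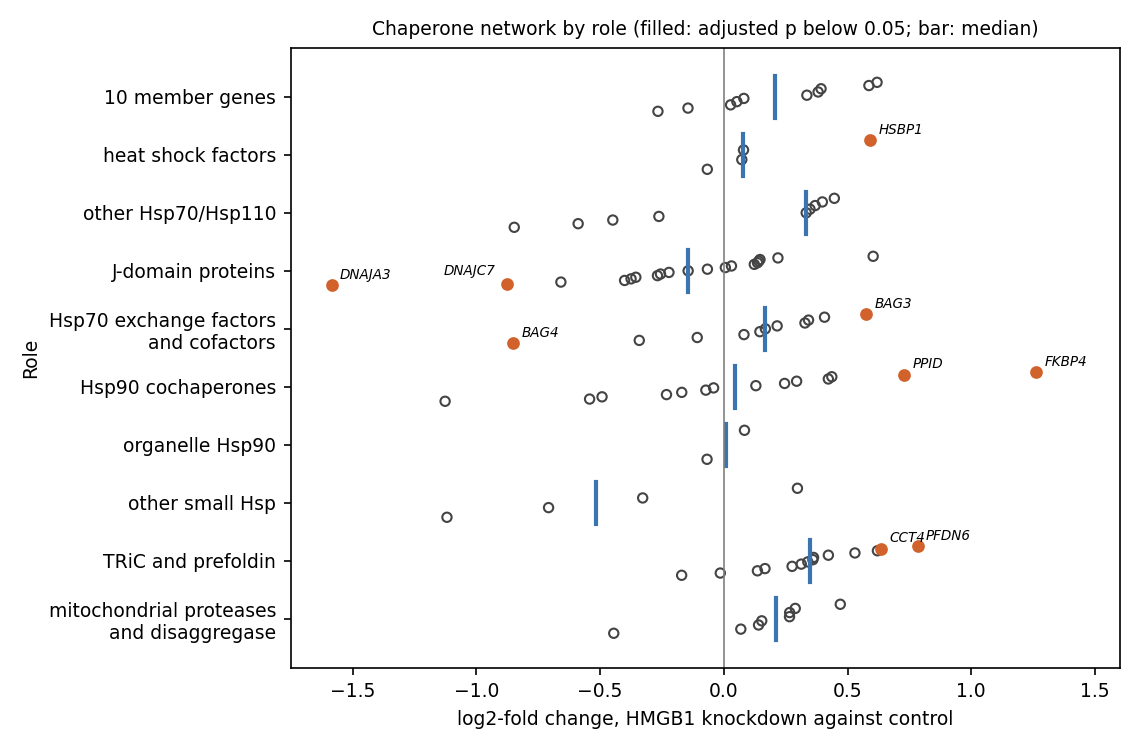
log2-fold change upon HMGB1 knockdown (x axis) of the 10 genes and of the wider chaperone network by role (y axis). Each mark is 1 gene, filled and named where the adjusted p of the edgeR test is below 0.05, and the blue bar is the median of the group; the named marks are 6 to the right of 0 (HSBP1, BAG3, PPID, FKBP4, CCT4 and PFDN6) and 3 to the left (DNAJA3, DNAJC7 and BAG4), and none of the 10 genes in the top row is filled.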

How the data were processed

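Libraries were made by the authors from poly(A) RNA (TruSeq) and sequenced from both ends, reads were aligned to hg19 (STAR), and unique reads were counted per gene (featureCounts). The deposited files hold raw counts of 63677 genes per library. Versions, the strand setting and whether a read pair counted once are not given in the sources used here.

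The test was the quasi-likelihood F test of edgeR 4.0.16 (R 4.3.3, with limma 3.58.1) after filterByExpr (15398 genes) and with TMM factors (0.968 to 1.04), on the 4 libraries with the group as the only term and with Benjamini-Hochberg adjustment over all genes tested. Calls used the study's thresholds, 0.01 for the adjusted p and 0.6 for the absolute log2-fold change. CPM were scaled with TMM factors, and RPKM divide them by the exonic length in the files. The scripts were tested on simulated data. Labels give each isolate 1 library in each group, so the replicate numbers pair the libraries. Over 15398 genes, the difference between the isolates was correlated between controls and knockdown (r = 0.46). Without the block, the p-values rest on the spread between isolates of a single line. With the block, the difference between the isolates is taken out. The p-values then rest on how far the change upon knockdown differed between the isolates. In both fits, edgeR draws the variance of each gene partly from all genes together. The p-value of a single gene is thus no direct measure of how well its isolates agreed. With the block, the standard error was 0.092 for HSPH1 (log2-fold changes of 0.40 and 0.38 in I90-10 and I90-79) and 0.10 for HSPD1 (0.70 and 0.50).

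The members, the lists of the wider network and of markers, and the tests were chosen with earlier results of these data known. Named were the 10 members, HMGB1, HSF1, HSF2, HSF4, for each role of the network the 2 genes of smallest p, and genes that share bases with a member. Symbols came from the reference tables, and HSPB11 and PECAM1 had no identifier on a primary chromosome. Alternatives were DESeq2 1.42.0, RUVs with 1 factor (written out from its description) before DESeq2, DESeq2's size factors, no filter on low counts, the replicate block, a filter of 10 counts in every library, an adjusted p below 0.05, and leaving out each library. Library totals without TMM factors and the isolate's coefficient were added after seeing the data. Promoters are from RefSeq, read in Python 3.11.15 and placed on GRCh37 by exact match, and overlaps and 50-base pieces used the exons of the files and GENCODE transcripts for GRCh37.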

Additional observations from a re-analysis of the deposited data

Results flagged for a closer look

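For 3 of the genes named above, the estimate had opposite signs in the isolates. With 1 library per isolate and group these differences were not tested, and the log2-fold change in I90-79 minus that in I90-10 is given as a value. HSPA1A was at -0.09 in I90-10 and 0.21 in I90-79, a difference of 0.30. HSP90AB1 was at 0.15 in I90-10 and -0.03 in I90-79, a difference of -0.18. HSF4, with 17 to 28 counts per library, was at -0.36 in I90-10 and 0.36 in I90-79, a difference of 0.72. With 2 libraries in a group, no library could be tested as an outlier.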

How the results depend on the processing

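The number of genes called up and down, 10 and 21 in the edgeR test, was 728 and 818 with DESeq2, 877 and 939 with RUVs, 1118 and 1275 without the low-count filter, 1028 and 1207 with the replicate block, 31 and 98 with library totals, 606 and 693 at an adjusted p below 0.05, 6 up with at least 10 counts in every library, and 0 to 182 up and 0 to 221 down when 1 library was left out. Of the 10 members, 1 (HSPE1) was called up with the block and without the filter. Of the network, 6 and 3 were called with DESeq2, 5 and 5 with RUVs, 7 and 5 without the filter, 6 and 5 with the block, 6 and 3 at an adjusted p below 0.05, 1 down with library totals, and 0 to 1 up and 0 to 1 down without single libraries. The median log2-fold change of the members, 0.21, was 0.16 with RUVs, 0.22 without the filter, 0.20 with at least 10 counts, 0.20 with the block, 0.17 with library totals and 0.12 to 0.38 without single libraries.

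Signs turned for HSPA1A (-0.058 with RUVs, -0.27 to 0.36 without single libraries), HSPA1B (-0.46 to 0.11), HSP90AB1 (-0.0080 with RUVs, -0.10 to 0.22), HSPB1 (-0.58 to 0.13), DNAJB1 (-0.012 with library totals), HSF4 (0.22 with RUVs, -0.51 to 0.53), HSP90B1 (-0.030 with RUVs, -0.13 to 0.32) and TRAP1 (-0.14 to 0.0058). The causes were not tested. Of 341 values of named genes under alternatives, 283 kept direction and call, 17 turned sign, 39 became calls and 2 lost one, both for HMGB1 without a knockdown library (adjusted p 0.0675 and 0.0567 in the edgeR test). With the same libraries, the block lowered the standard error of HSPD1 from 0.22 to 0.10 and that of HSPA1B from 0.26 to 0.11.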
